A study of Mus musculus with 11 samples.

Results

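Complex I, the NADH:ubiquinone oxidoreductase of the inner mitochondrial membrane, was followed here through the transcripts of 35 nuclear genes that encode its subunits. They were taken by symbol from the deposited count table, which holds 15113 genes. All 35 had a row, and all 35 passed the low-count filter that left 13025 genes for testing. The cells were C2C12, a mouse skeletal myoblast line that can be made to fuse into myotubes, and the labels describe every library as early stage myotubes at passages 2 to 5. The 2 groups differ in the hairpin named in the sample titles. In the shRandom group (n = 6) the cells carried a random short hairpin RNA, and in the shDRP1 group (n = 5) the hairpin was directed at Drp1, a GTPase of mitochondrial division whose gene is Dnm1l. The number of hairpin sequences or clones behind each group is not given in the sources used here, and the labels do not say that libraries came from separate cultures. The p-values therefore rest on differences between libraries that may be technical replicates.

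Complex I takes electrons from NADH, passes them through a flavin and a chain of iron-sulfur clusters to ubiquinone, and pumps protons as it does so. It is built from modules. The N module at the tip of the matrix arm oxidises NADH, the Q module below it reduces ubiquinone, and the proximal and distal parts of the membrane arm hold the proton pumps. The pump subunits themselves are encoded by mitochondrial DNA. The catalytic core of the matrix arm and a large shell of supernumerary subunits, which stabilise the complex and guide its assembly, come from the nucleus, so the enzyme needs transcripts from both genomes. Differentiating muscle cells are known for raising their respiratory capacity.

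Promoters of respiratory genes are known for binding sites of NRF1 and YY1, and windows around such motifs are shown first as sequence features that a larger share of member promoters than of other promoters held. A link between these motifs and the changes in transcripts was not tested. RefSeq promoter windows of 300 bases on GRCm38 (250 before to 50 after the start site) were found for 32 of the 35 genes, as 34 promoters. The YY1 motif, AANATGGCG on either strand, was present in 7 of these 34 promoters (20.6%), against 5.00% of the 12447 promoters of tested genes and 2.38% of all 32851 promoters. In Ndufs7, Ndufa9, Ndufc1, Ndufs6 and Ndufs4 the letters lie 22 to 35 bases after the start site, in the same orientation as the gene, and they are in capitals below. The motif letters include ATG, and whether they cover the start of translation was not examined. Of the 7 genes with the motif 5 were lower in shDRP1 libraries, 1 (Ndufs4) was higher and 1 did not pass the test, where 62.9% of all members and 33.3% of all genes tested were lower.
Ndufs7, chr10:80249463-80249491, plus strand: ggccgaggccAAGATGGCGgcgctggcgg
Ndufa9, chr6:126849097-126849125, minus strand: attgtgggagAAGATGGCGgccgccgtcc
Ndufc1, chr3:51408915-51408943, minus strand: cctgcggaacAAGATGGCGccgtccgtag
Ndufs6, chr13:73328433-73328459, minus strand: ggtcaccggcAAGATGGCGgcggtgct
Ndufs4, chr13:114388045-114388069, minus strand: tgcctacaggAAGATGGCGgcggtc

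The NRF1 motif, searched on both strands with 1 base left free, was present in 8 of the 34 promoters (23.5%). It was present in 9.87% of promoters of tested genes and 4.60% of all promoters. The 8 promoters belong to 7 of the 32 matched genes, since both Ndufa5 promoters overlap and hold the same site. Of these 7 genes 4 were lower and 3 (Ndufa8, Ndufa11 and Ndufs5) did not pass the test, a share lower that is below the 62.9% of all members. The windows shown are from the 4 lower genes and were chosen with the calls known: Ndufa5, Ndufs6, Ndufa6 and Ndufb4, which held the motif at 3 places, the 2 nearest to the start site being shown. The motif is again in capitals.
Ndufb4, chr16:37654371-37654400, minus strand: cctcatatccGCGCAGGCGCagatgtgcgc
Ndufb4, chr16:37654428-37654457, minus strand: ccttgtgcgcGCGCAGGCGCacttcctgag
Ndufa5, chr6:24527697-24527726, minus strand: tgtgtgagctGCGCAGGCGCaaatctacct
Ndufs6, chr13:73328479-73328508, minus strand: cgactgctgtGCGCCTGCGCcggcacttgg
Ndufa6, chr15:82354249-82354278, minus strand: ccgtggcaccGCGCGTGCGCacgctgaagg

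An ETS motif, CCGGAAGTG, was found in 2.94% of member promoters, 4.27% of those of tested genes and 2.03% of all. An ERRA motif, AAGGTCA, was found in 8.82%, 3.0% and 4.72%. No 2 different motifs overlapped in a member promoter. Mean GC content was 58.3% in member promoters and 60.7% in those of tested genes. These are matches of letters, not measured binding sites.

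The measurement is a count of sequence tags near the 3' end of polyadenylated transcripts (QuantSeq), so a value follows transcript number and not transcript length. Levels are given as CPM, counts relative to a library's total after TMM scaling, which corrects for differences in library composition. Fold changes are on the log2 scale for shDRP1 against shRandom, and a gene was called when its adjusted p in edgeR's quasi-likelihood test was under 0.05. Total counts ran from 12277622 to 23082617 per library. Excluding Ndufs5, which had as few as 37 counts in a library, every member had at least 309 counts in every library. Dnm1l was at 67.1, 82.98 and 86.3 CPM in the lowest, median and highest shRandom library and at 14.5 to 20.96 CPM across shDRP1 libraries, so the targeted transcript was lower in all 5 of them.

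The labelled cell type was checked against its markers. All 13 myotube genes examined, from Myod1 to Des, were lower in every shDRP1 library than in any shRandom library, with a median log2 fold change of -6.89. Their summed share of counts was 1.52% to 1.69% in shRandom libraries and 0.0231% to 0.0294% in shDRP1 libraries, so the shDRP1 libraries hardly carry the markers of the labelled stage. Of 4 tested smooth muscle genes 3 rose. Their summed share went from 0.257% to 0.306% in shRandom libraries to 0.852% to 1.05% in shDRP1 libraries. Of 5 fibroblast genes 4 rose, with shares of 0.639% to 0.728% and 1.40% to 2.18%. Proliferation genes passed the test in 2 of 6 cases (33.3%), both higher. Of all genes tested 33.9% were higher. Endothelial and immune markers were near 0: Cd68 was the only one of 4 tested, at no more than 0.000104% of counts in every library. Adipocyte genes took at most 0.00190% and osteoblast genes at most 0.00425% of counts in any library. The part of these differences in the complex I results was not tested, and in bulk libraries fewer cells of a type and less RNA per cell cannot be told apart.

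Libraries also differed within their groups. A first component of the deviations of 9841 genes from their group means held 59.0% of the within-group variance, and shRandom replicate 1 and shDRP1 replicate 2 had the highest scores on it (both 0.485), with shRandom replicate 4 (-0.459) and shDRP1 replicate 5 (-0.42) at the other end. The ribosomal RNA share of counts was 4.17% in shRandom replicate 1, 4.57% in shDRP1 replicate 2 and 4.54% in shDRP1 replicate 3, against 6.38% to 8.74% in the other libraries. Without shRandom replicate 1 and shDRP1 replicate 2 together, 22 members were lower and 4 higher.

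Most complex I subunit transcripts were moderately lower in shDRP1 libraries. Of the 35 genes, 22 fell and 3 rose, and 10 did not pass the test. Over all 13025 genes tested, 33.3% fell, 33.9% rose and 67.1% passed the test in either direction. The members' share that changed at all (71.4%) was thus near the background, while their split between directions was 62.9% lower and 8.57% higher. The median log2 fold change was -0.31 for the members and 0.03 for all genes tested. Taken library by library against the shRandom mean, the members' median was -0.33, -0.31, -0.26, -0.35 and -0.38 in shDRP1 replicates 1 to 5 and lay between -0.10 and 0.08 in shRandom libraries. In 18 members every shDRP1 library lay below every shRandom library (25.4% of all genes) and in 3 every shDRP1 library lay above (23.5%).

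Few members changed by a large factor. Ndufb7 alone changed at least 2-fold, which is 2.86% of the members, against 25.01% of all genes tested and 19.0% of the 10068 genes within the members' range of levels. The median size of the change, regardless of direction, was 0.37 in the members, 0.41 in the genes within their range of levels and 0.47 in all genes on the log2 scale. The lower end of that range is set by Ndufs5, whose level lies far below that of every other member. The genes within the range are therefore not matched to the members in level. Tested against a fold of 1.2 in place of no change, 14 members were lower and 3 higher. For all genes, the smallest counts under any alternative, this one included, were 2934 lower and 3049 higher. Together the 35 genes took 0.648% ± 0.0367 (SD, n = 6) of all counts in shRandom libraries and 0.578% ± 0.0319 (SD, n = 5) in shDRP1 libraries. The ranges, 0.612% to 0.706% and 0.536% to 0.620%, overlap. Relative to TMM-scaled library sizes, the scale of the CPM values, the share was 0.668% ± 0.0343 (SD, n = 6) and 0.556% ± 0.0207 (SD, n = 5), and the ranges of 0.626% to 0.705% and 0.529% to 0.585% do not overlap. The difference in the member share of counts was -0.0702 percentage points on the first scale and -0.112 on the second.

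**Figure D1:**
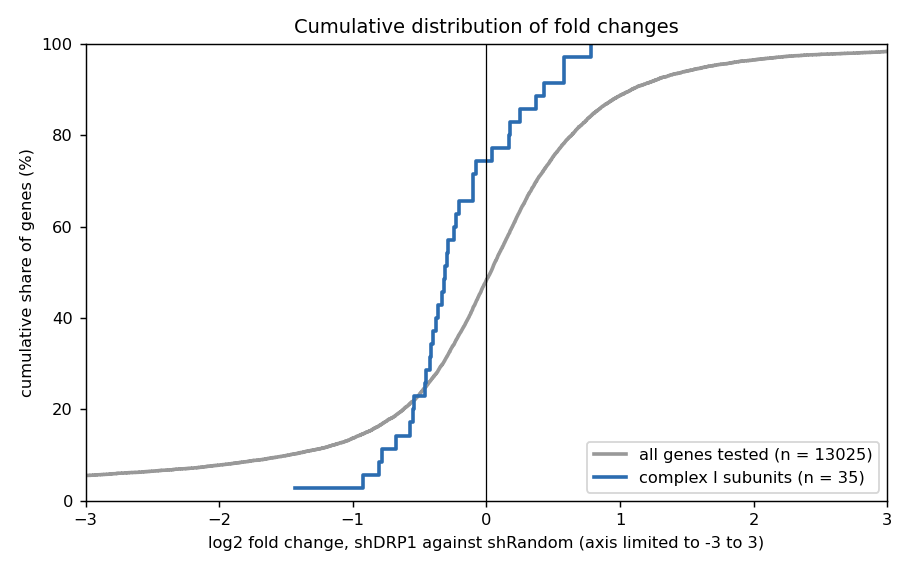
Cumulative share of genes (vertical axis, %) by log2 fold change of shDRP1 against shRandom libraries (horizontal axis, shown from -3 to 3), for the 35 complex I subunit genes (blue) and all 13025 genes tested (grey). The members' curve is narrower and lies to the left around its median of -0.31, where that of all genes is 0.03.

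By module, all 5 Q module genes fell (median -0.54). The N module had 7 of 10 lower and 2 higher (median -0.30), and the distal membrane arm 7 of 10 lower and none higher (median -0.32). In the proximal membrane arm 3 of 9 fell and 1 rose, with a median of 0.04, close to that of all genes. Placing of some subunits varies between sources. With Ndufa6, Ndufa7 and Ndufa12 counted in the Q module and Ndufa9 in the proximal arm, 6 of 7 Q module genes fell, 5 of 7 in the N module and 4 of 10 in the proximal arm, whose median turned to -0.03. The difference between modules was not tested. The members' counts were also divided differently: the Q module took 10.04% of them in shRandom and 8.64% in shDRP1 libraries, the distal arm 30.9% and 28.2%, the N module 35.2% and 37.4%, and the proximal arm 22.6% and 24.5%. For each of the 4 modules the shRandom and shDRP1 ranges of this share did not overlap. Within the N module Ndufv3 went from 4.14% to 8.58% of the members' counts, a larger difference than that of the module as a whole. Within the distal arm Ndufb7 went from 4.29% to 1.92%, a difference close to that of the arm as a whole.

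**Figure D2:**
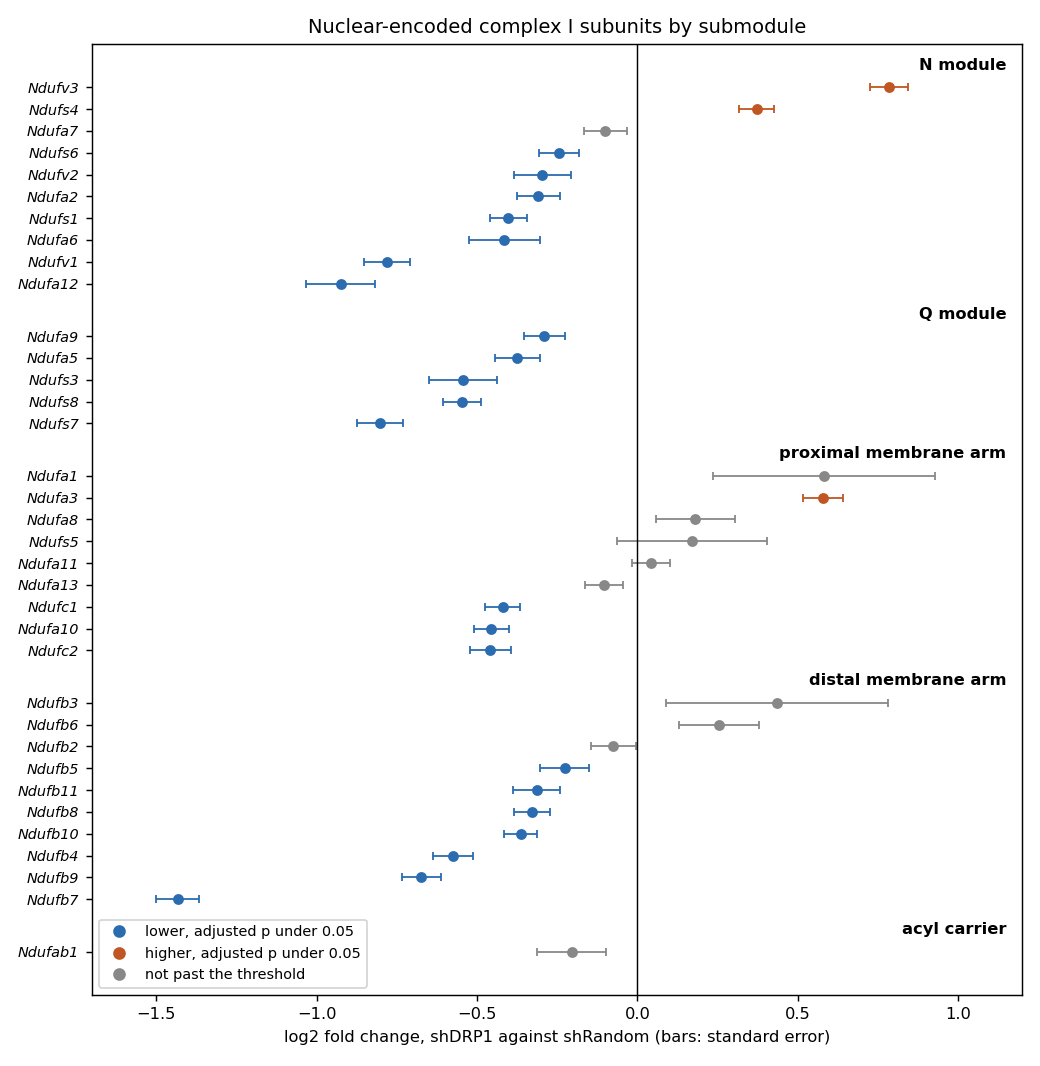
Log2 fold change of shDRP1 (n = 5) against shRandom (n = 6) libraries (horizontal axis) for the 35 genes, grouped by module, with standard errors as bars and the call as colour. All 5 Q module genes lie below 0, the proximal membrane arm is divided around 0, and Ndufb7 at -1.43 stands apart from the rest.

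The 6 listed genes that encode core subunits, those kept from bacteria to mammals, all fell, with a median log2 fold change of -0.54. Of the 29 supernumerary genes 16 fell and 3 rose (median -0.24). The core genes of the N module are considered first. Ndufv1, which binds NADH and the flavin, was at 249, 263 and 309 CPM in the lowest, median and highest shRandom library and at 159, 143, 156, 158 and 169.6 CPM in shDRP1 replicates 1 to 5. The groups did not overlap, and the shDRP1 mean was 58.2% of that in shRandom libraries (log2 fold change -0.78, SE 0.07, adjusted p = 1.8e-07). Ndufs1, the large iron-sulfur subunit, had shRandom values of 117, 127 and 129.96 CPM and shDRP1 values of 90.5, 95.3, 102, 96.8 and 87.2 CPM, again without overlap. It fell by 0.40 on the log2 scale (adjusted p = 2.1e-05). Ndufv2, the iron-sulfur partner of Ndufv1, lay at 107, 132 and 142 CPM in shRandom and 104, 129, 107, 95.4 and 94.4 CPM in shDRP1 libraries. Here the groups overlapped, since shDRP1 replicate 2 was high and shRandom replicate 4 low, but the gene passed the test (log2 fold change -0.30, SE 0.09, adjusted p = 0.0089). It did not pass with scaling by library totals alone (adjusted p = 0.0836).

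Supernumerary genes of the N module moved in both directions. Ndufa12, which in the finished complex takes the place of the assembly factor Ndufaf2, stood at 206, 247 and 276 CPM in shRandom and 118, 104, 117, 137 and 161 CPM in shDRP1 libraries. The shDRP1 libraries were all below the others, and the gene fell by 0.93 on the log2 scale (SE 0.11, adjusted p = 2.7e-06). In the last 300 bases of its transcripts 27.7% of 50-base stretches also occur in the gene Gm15920, which was itself lower by a log2 fold change of -0.82 (SE 0.08, adjusted p = 2.9e-07), so the division of reads between the pair is uncertain. Ndufa6, a LYR-motif protein that docks the acyl carrier protein on the matrix arm, fell by 0.42 (adjusted p = 0.00429), with groups of 267 to 436 and 211 to 299 CPM that overlap. The thioredoxin-fold subunit Ndufa2 and the zinc-binding Ndufs6 fell by 0.31 and 0.24, both without overlap.

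Ndufv3 and Ndufs4 were the N module genes that rose. Ndufv3, a small subunit beside the flavin site, went from 253, 281 and 294 CPM in shRandom to 498, 474, 506, 474 and 435 CPM in shDRP1 libraries. The gene (ENSMUSG00000024038, chromosome 17, 31520115 to 31531331, plus strand on GRCm38) was in every shDRP1 library well above every shRandom library (log2 fold change 0.79, SE 0.06, adjusted p = 2.4e-08). Ndufs4, which helps to hold the N module on the complex and is mutated in Leigh syndrome, was at 74.2, 80.04 and 84.1 CPM and 105, 103, 108, 105 and 94.9 CPM. Its groups were separate as well, with a smaller gap (log2 fold change 0.37, SE 0.05, adjusted p = 2.6e-05). Ndufa7, among the 3 members with the smallest changes, had shRandom values of 214, 239 and 267 CPM and shDRP1 values of 226, 228, 244, 223 and 205 CPM. The ranges overlap and the difference did not pass the test (-0.10, SE 0.07, adjusted p = 0.204).

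In the Q module no gene had overlapping groups. Ndufs7 and Ndufs8 carry the iron-sulfur clusters closest to ubiquinone. Ndufs7 was at 109.7, 127 and 144 CPM in shRandom and 76.2, 70.9, 71.7, 69.1 and 75.5 CPM in shDRP1 libraries, a log2 fold change of -0.80 (SE 0.07, adjusted p = 1.6e-07). The 5 shDRP1 values lie close together and 57.3% of the shRandom mean was left. Ndufs8 went from 145, 167 and 173 CPM to 108, 109.7, 109, 119 and 113 CPM, also with little spread among shDRP1 libraries (-0.55, SE 0.06, adjusted p = 1.2e-06). Ndufs3, a core subunit that joins at the start of assembly, had low levels of 26.3, 29.1 and 33.1 CPM and 17.9, 26.1, 19.9, 18.5 and 18.03 CPM. Its shDRP1 replicate 2 was close to the shRandom range and the other 4 were clearly below it (-0.54, SE 0.11, adjusted p = 3.9e-04). In Ndufs3, 53.0% of 50-base stretches at the 3' end are shared with Gm12251, which had only 60 counts in all libraries against 4907 for Ndufs3. The supernumerary genes Ndufa5 and Ndufa9, the latter with a dehydrogenase fold, fell by 0.37 and 0.29 (adjusted p = 2.5e-04 and 9.5e-04).

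The proximal membrane arm had 3 genes lower, 1 higher and 5 that did not pass the test. Ndufa10, a kinase-like matrix subunit at the foot of the arm, was at 381, 422 and 441 CPM in shRandom and 311, 291, 314, 313 and 297 CPM in shDRP1 libraries (-0.46, SE 0.05, adjusted p = 3.2e-06). Ndufc2, a small membrane subunit, was at 147, 169.7 and 185 CPM and 129, 128, 118, 117 and 126 CPM (-0.46, SE 0.06, adjusted p = 1.7e-05). In both genes, and in Ndufc1 with a fold change of -0.42, all shDRP1 libraries lay below all shRandom libraries. Ndufa3, a single-helix membrane subunit, went the other way, from 88.2, 92.4 and 103 CPM to 136, 138, 156, 138 and 129 CPM. It rose without overlap (log2 fold change 0.58, SE 0.06, adjusted p = 1.4e-06). Ndufa11, a membrane protein of the arm, was at 165, 186 and 198 CPM and 185, 174, 196, 201 and 193 CPM, overlapping ranges with a fold change of 0.04 (SE 0.06, adjusted p = 0.541). It overlaps by 256 bases the opposite-strand gene Vmac, and the strand setting of the counting is not given in the sources used here. Ndufa13, also known as GRIM-19, had a fold change of -0.10 (adjusted p = 0.13). It shares its strand and 8379 bases with Yjefn3, which had 590 counts.

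**Figure D3:**
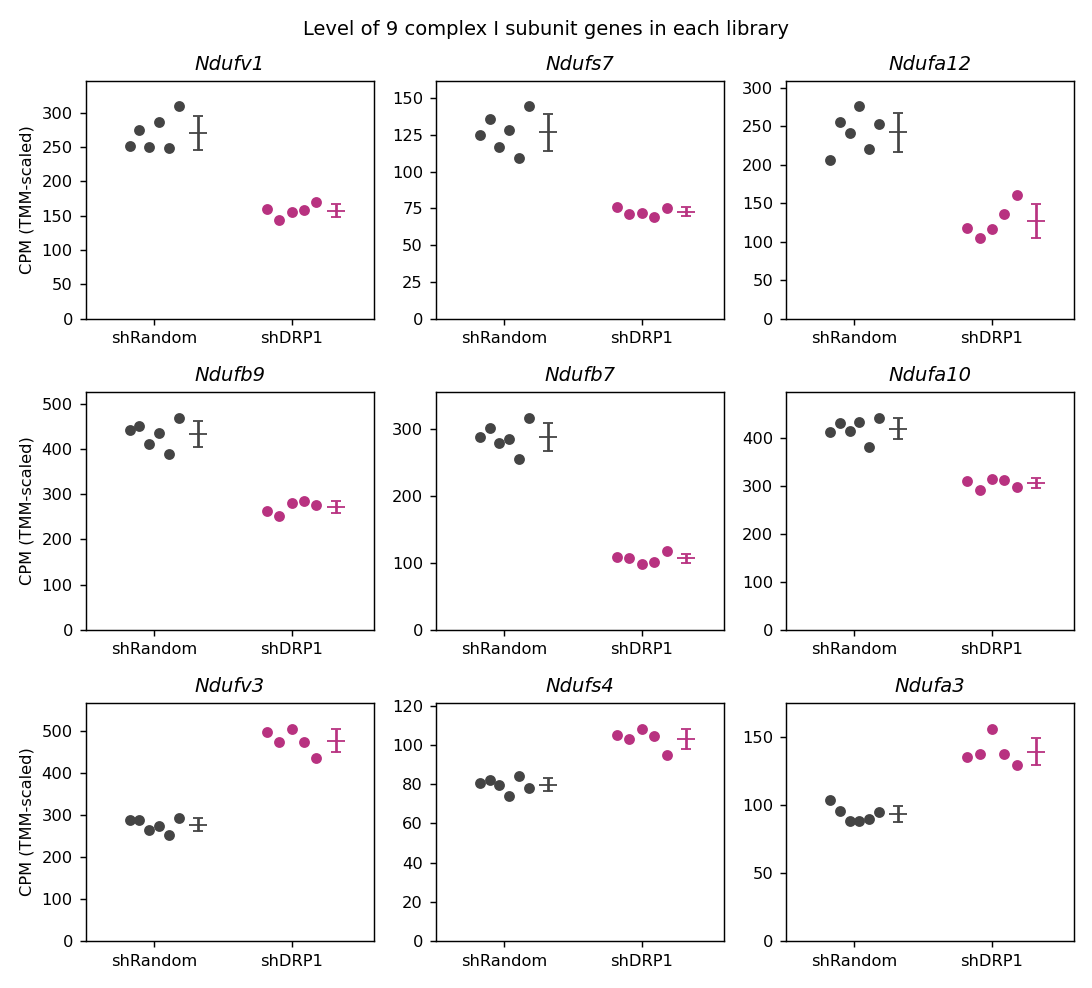
Level of 9 subunit genes in each shRandom (grey, n = 6) and shDRP1 (pink, n = 5) library, in CPM on axes that start at 0, with the mean and SD beside the points. The groups are separate in all 9 panels, downward from Ndufv1 to Ndufa10 and upward for Ndufv3, Ndufs4 and Ndufa3.

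In the distal membrane arm, Ndufb7 had the largest change of the 35 genes. This subunit, a twin-cysteine protein on the intermembrane-space side, was at 255, 286 and 317 CPM in shRandom and 109, 107, 98.9, 101 and 117 CPM in shDRP1 libraries. The shDRP1 libraries kept 37.05% of the shRandom mean, far outside the spread of either group (log2 fold change -1.43, SE 0.07, adjusted p = 1.3e-10). Ndufb9, the LYR-motif protein that docks the acyl carrier on the membrane arm, went from 389.9, 439 and 469.9 CPM to 263, 253, 280.01, 285 and 276 CPM (-0.67, SE 0.06, adjusted p = 1.7e-07). Ndufb4, a single-helix subunit, went from 101, 106 and 119 CPM to 71.9, 75.5, 76.4, 71.6 and 68.7 CPM (-0.57, SE 0.06, adjusted p = 1.3e-06). Neither gene had overlapping groups. Ndufb10 and Ndufb8 fell by 0.36 and 0.33, also without overlap, while Ndufb11 and Ndufb5 fell by 0.31 and 0.23 with overlapping libraries. Ndufb5 overlaps Mrpl47 on the opposite strand by 616 bases, and its call was lost with scaling by library totals alone (adjusted p = 0.200) and by upper quartile (adjusted p = 0.114).

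The gene closest to no change in this arm was Ndufb2. Its levels were 157, 169 and 193 CPM in shRandom and 155, 154, 185, 172 and 149 CPM in shDRP1 libraries, which overlap. The fold change was -0.08 (SE 0.07, adjusted p = 0.359), and its sign turned to 0.0093 with upper-quartile scaling and 0.024 with library totals alone. Ndufab1, the mitochondrial acyl carrier protein that sits in both arms of complex I and also serves fatty acid and iron-sulfur cluster synthesis, was at 63.9, 84.7 and 103 CPM and 74.7, 83.1, 76.7, 69.8 and 60.2 CPM. Its ranges overlap (fold change -0.20, SE 0.11, adjusted p = 0.105). It passed without shRandom replicate 4 (-0.27, adjusted p = 0.0158) and without shDRP1 replicate 2 (-0.26, adjusted p = 0.0497).

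Ndufb7 differs from the other members in its genomic surroundings. Its position on GRCm38 is chromosome 8, 83566671 to 83571626, plus strand (ENSMUSG00000033938). Of the 20 nearest tested genes, 10 on each side, 15 fell and 1 rose (median log2 fold change -1.14). For the other 34 members the same median ran from -0.66 to 0.44. On the side of higher coordinates Tecr (-1.55), Dnajb1 (-0.80) and Gipc1 (-0.86), the closest there, fell. On the other side Scoc (-0.54), Elmod2 (-1.50) and Tbc1d9 (-1.01) fell, and Rnf150 was at 0.11 (adjusted p = 0.456). Within 5 Mb after the start of Ndufb7, 60 of 72 tested genes fell and 5 rose, whereas 20 to 25 Mb after it 13 of 75 fell and 41 rose. Without Ndufb7 the other 34 members had a median of -0.30, with 21 lower and 3 higher. The part of these neighbouring decreases in that of Ndufb7 was not tested.

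**Figure D4:**
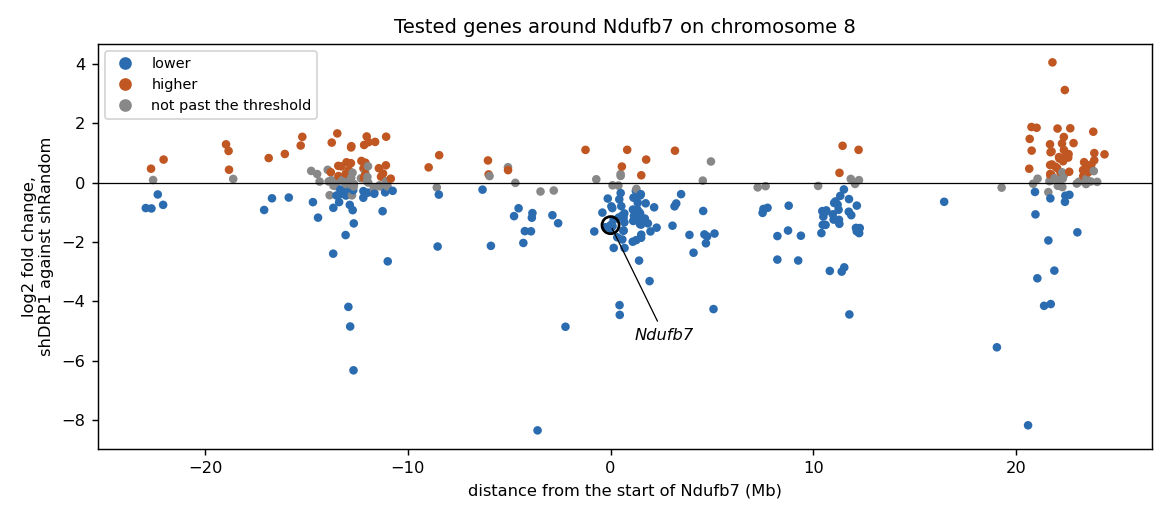
Log2 fold change of tested genes on chromosome 8 (vertical axis) by distance from the start of Ndufb7 in Mb (horizontal axis), coloured by call, with Ndufb7 circled. From -5 to 0 Mb 15 of 20 genes fell and from 0 to 5 Mb 60 of 72, while from -15 to -10 Mb 32 of 95 fell and 29 rose.

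Several members that did not pass the test varied widely among libraries of one group, and they varied together. Ndufb3, a small distal-arm subunit, was at 48.5, 96.8 and 187 CPM in the lowest, median and highest shRandom library and 135, 241, 176, 103 and 69.1 CPM in shDRP1 replicates 1 to 5. Its highest values were in shRandom replicate 1 and shDRP1 replicate 2, and its lowest in shRandom replicate 4 and shDRP1 replicate 5. Its within-group SD of 0.67 on the log2 scale was larger than that of 99.4% of the 9841 genes. Ndufa1, an X-linked proximal-arm subunit needed for assembly, was at 18.01, 33.1 and 59.4 CPM and 41.8, 101, 57.9, 36.7 and 27.1 CPM, with the same libraries at both ends and an SD of 0.65. In contrast, Ndufb10 had an SD of 0.06. The first within-group component accounted for 98.1% of the within-group variance of Ndufb3, 97.3% of Ndufa1, 91.9% of Ndufb6, 88.6% of Ndufab1 and 86.7% of Ndufa8, and for 88.4% of Ndufa12 with the opposite sign. Of members called lower, Ndufb5 (80.6%), Ndufa6 (77.8%) and Ndufv2 (70.3%) also had most of their within-group variance on this component. The other called members, Ndufa12 aside, had at most 49.4%. All of these genes are among those the component was computed from.

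**Figure D5:**
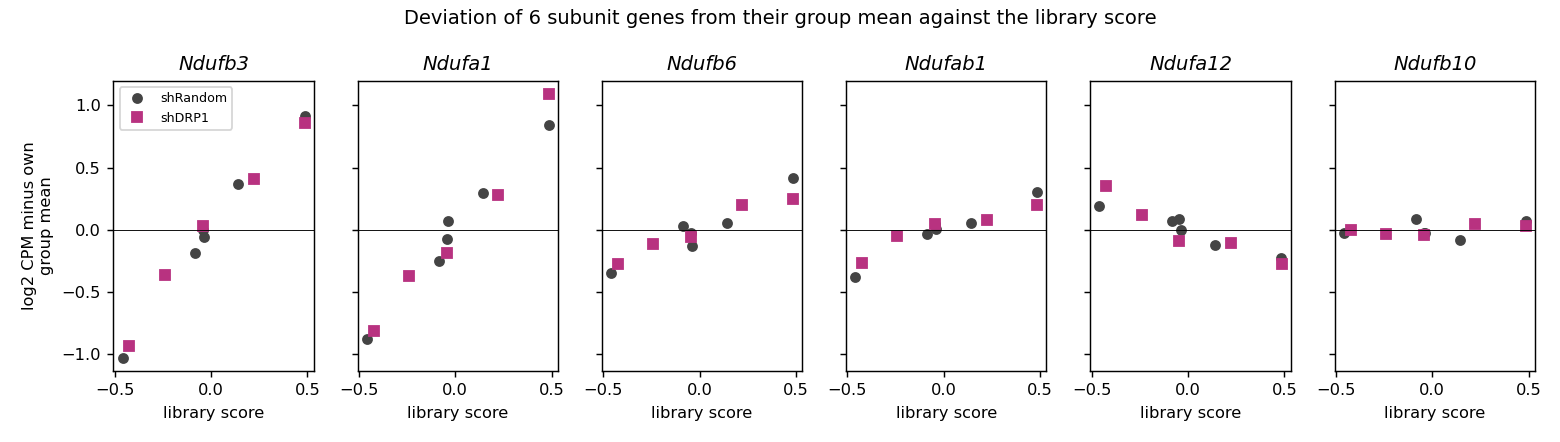
Log2 CPM of 6 subunit genes minus the mean of their own group (vertical axis) against the library score on the first within-group component (horizontal axis), for shRandom (grey circles) and shDRP1 (pink squares) libraries. Ndufb3, Ndufa1, Ndufb6 and Ndufab1 climb with the score in both groups, Ndufa12 descends and Ndufb10 is flat.

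Among the members that did not pass the test, the fold changes were 0.43 for Ndufb3 (SE 0.35, adjusted p = 0.286) and 0.58 for Ndufa1 (SE 0.35, adjusted p = 0.157). The twin-cysteine subunit Ndufa8 had 0.18 (adjusted p = 0.211) and the distal-arm subunit Ndufb6 had 0.25 (adjusted p = 0.0884). With the component as a covariate, chosen after seeing the data, all 4 passed as higher in edgeR: Ndufb3 at 0.42 (adjusted p = 3.7e-07), Ndufa1 at 0.53 (2.0e-07), Ndufa8 at 0.19 (0.00303) and Ndufb6 at 0.26 (5.8e-05). Ndufab1 passed as lower (-0.20, adjusted p = 0.00120), which gave 23 members lower and 7 higher. That fit called 4825 of all genes lower and 5094 of all genes higher. The covariate was estimated from the same counts, so these p-values are too small by an unknown amount. With the ribosomal RNA share as the covariate Ndufb6 passed as higher (0.24, adjusted p = 0.00298) and Ndufab1 as lower (-0.22, adjusted p = 0.00962), and Ndufb3 (0.33, adjusted p = 0.190), Ndufa1 (0.46, 0.0781) and Ndufa8 (0.16, 0.0601) did not. What sets the component was not tested. Ndufs5, another twin-cysteine subunit, had 613 counts in all and shares 47.8% of its 3' stretches with BC002163. Its fold change of 0.17 (adjusted p = 0.532) was -0.11 without shDRP1 replicate 2.

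The complex I subunits encoded by mitochondrial DNA moved in the opposite direction to most of the nuclear ones. Of the 5 tested out of 7 (mt-Nd3 and mt-Nd4l are not analysed here), 4 rose and none fell: mt-Nd5, a pump subunit of the distal arm, by 1.14 on the log2 scale (adjusted p = 5.4e-09), mt-Nd1, which borders the ubiquinone site, by 0.55 (adjusted p = 9.1e-05), mt-Nd2 by 0.49 (adjusted p = 0.00115) and mt-Nd6 by 0.49 (adjusted p = 0.0457). The pump subunit mt-Nd4 was at 0.21 (adjusted p = 0.0793). Of all genes tested 33.9% rose. Together the 5 took 0.867% to 1.13% of counts in shRandom and 1.19% to 1.64% in shDRP1 libraries, without overlap. Priming on poly(A) tails may not measure mitochondrial and nuclear transcripts alike, and mitochondrial sequences have nuclear copies.

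Assembly factors, which build the modules and leave the finished enzyme, went both ways. Of 21 listed 20 were tested, and 6 fell and 7 rose. These shares are close to those of all genes tested, of which 33.3% fell and 33.9% rose. Ndufaf3, which acts on the Q module, averaged 20.4 ± 3.26 CPM (SD, n = 6) in shRandom and 6.58 ± 2.02 CPM (SD, n = 5) in shDRP1 libraries, a log2 fold change of -1.65 (adjusted p = 1.6e-06). Tmem126a fell by 0.51 (adjusted p = 3.1e-04) and Ecsit, a membrane-arm assembly protein, by 0.48 (adjusted p = 0.00239). Lyrm2, a factor of the N module, rose by 0.70 (adjusted p = 8.3e-07), Ndufaf6 by 0.68 (adjusted p = 8.5e-06) and Tmem126b, which works with Ecsit, by 0.54 (adjusted p = 1.7e-05). Among 14 genes for making iron-sulfur clusters, 5 fell (35.7%, against 33.3% of all genes) and 2 rose (14.3%, against 33.9%). The chaperone Hspa9 stood at 766 ± 41.1 CPM (SD, n = 6) in shRandom and 349.9 ± 27.4 CPM (SD, n = 5) in shDRP1 libraries, -1.13 on the log2 scale (adjusted p = 1.0e-09). The cluster carrier Glrx5 fell by 0.44 and Iba57 by 0.41, both past the test, while Lyrm4 (adjusted p = 0.0259) and the reductase Fdxr (adjusted p = 0.0467) were higher by 0.21 near the threshold. The number of these genes called higher was 0 with the replicate block, without shRandom replicate 3 and without shDRP1 replicate 1 or 3.

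Enzymes that feed ubiquinone without complex I also went both ways. Of 11 tested, 2 fell (18.2%, against 33.3% of all genes) and 4 rose (36.4%, against 33.9%). The number that rose was 3 whichever library was left out. In complex II, the succinate dehydrogenase, Sdhb fell by 0.54 (adjusted p = 2.7e-06) and Sdha by 0.21 (adjusted p = 0.00219), while Sdhc was higher by 0.66 (adjusted p = 0.0284). The glycerol-3-phosphate dehydrogenase Gpd2 rose from a mean of 92.04 ± 2.44 CPM (SD, n = 6) in shRandom to 116 ± 5.78 CPM (SD, n = 5) in shDRP1 libraries, with every shDRP1 library above every shRandom library (0.34, adjusted p = 3.7e-05). The sulfide oxidase Sqor rose by 0.81 (adjusted p = 0.00768). Its groups overlapped, with shRandom replicate 1 at 12.6 CPM and shDRP1 replicate 5 at 9.48 CPM. The groups of Sdhc overlapped in the same libraries (78.3 and 54.6 CPM). Ndufa4, named for complex I but counted as a subunit of complex IV, was at 0.44 (adjusted p = 0.13), and its paralog Ndufa4l2 fell from 1.23 to 0.281 CPM (134 and 25 counts in all).

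Of 9 tested regulators known to act on respiratory genes, 5 fell (55.6%, against 33.3% of all genes) and 2 rose (22.2%, against 33.9%). Nrf1 fell by 0.42 (adjusted p = 0.00118) and Yy1 by 0.41 (adjusted p = 0.00296). The ETS factor gene Gabpa fell by 0.38 and its partner Gabpb1 was at 0.04 (adjusted p = 0.753). Tfam, which packages and transcribes mitochondrial DNA, fell from a mean of 58.7 ± 3.16 CPM (SD, n = 6) in shRandom to 40.02 ± 3.82 CPM (SD, n = 5) in shDRP1 libraries (-0.55, adjusted p = 6.8e-06). The PGC-1 coactivator genes were split: Ppargc1b fell by 2.23, while Ppargc1a rose by 3.42 from a very low level (19 counts in all shRandom and 169 in all shDRP1 libraries) and Pprc1 by 0.52. Esrra, the estrogen-related receptor alpha gene, was at 0.27 (adjusted p = 0.0948).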

How the data were processed

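Messenger RNA of 11 C2C12 libraries was counted from 3' tags (QuantSeq). The authors deposited whole-number raw counts per gene, aligned in BlueBee per the series text; a second deposited table of normalized signal was not analysed further. GRCm38, mm10 and DESeq2 1.22.2 stand in the submitters' processing notes. Not given in the sources used here are the counter, its strand setting and its annotation. Symbols were matched by Ensembl identifier (15080 of 15113).

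Counts were filtered with filterByExpr, scaled by TMM and tested with edgeR 4.0.16 (R 4.3.3; quasi-likelihood, robust, group as only term, Benjamini-Hochberg over 13025 genes, threshold 0.05). The fit was tested on simulated data in which a small share of genes was changed. That setting differs from these data, where 67.1% of genes tested were called. Replicates were checked for duplicates (chi-square per degree of freedom 5.03 to 57.2, none alike). Promoters came from RefSeq on GRCm38. Intervals for counting error are not given, since PCR reads were not marked.

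Members, modules, lists and named genes were chosen with earlier results of these data known. Values per library are given for members called higher, the 10 most lowered, core subunits, Ndufab1 and the 3 smallest changes; of pathway lists, the 3 smallest adjusted p-values each way and every regulator; and the 4 nearest genes on each side of a member whose neighbours' median passes 1 in size, of which 1 is not reported here. Outside this rule, mt-Nd4, mt-Nd6, Ndufb3 and Ndufa1 with their libraries, and genes that overlap or share sequence with a member were named after their values were seen. Alternatives were other scalings, filters, tools (DESeq2 1.42.0, limma-voom with limma 3.58.1), thresholds, thinning, a replicate block, another module assignment, another denominator and leaving out each library; added after seeing the data were 2 covariates and leaving out shRandom replicate 1 with shDRP1 replicate 2. No list was tested as a set. No column of the raw count table was left unused.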

Additional observations from a re-analysis of the deposited data

Results flagged for a closer look

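Over 78 groups of values checked, 2 held a library whose distance from the rest was large for the group's range, and chance alone gives about 1 in 20. Ndufv2 was at 107.4 CPM in shRandom replicate 4, the lowest of that group, where the next library was at 130.02 CPM. Without that library its log2 fold change was -0.35 (edgeR, adjusted p = 0.00170). Ndufs3 was at 26.1 CPM in shDRP1 replicate 2, the highest of that group, where the next library was at 19.9 CPM. Without that library its log2 fold change was -0.66 (edgeR, adjusted p = 8.3e-06). These libraries lie at the low and high ends of the first within-group component.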

How the results depend on the processing

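All 25 called members kept their direction and call when any of the 11 libraries was left out, and 17 kept them under every alternative run on them. Over the 25 alternatives run on members 841 of 874 member values kept direction and call, 13 lost the call, 16 gained one and 4 turned sign: Ndufb2 (0.0093 with upper-quartile scaling, 0.024 with library totals alone) and Ndufs5 (-0.11 without shDRP1 replicate 2, against at most 0.296 without shDRP1 replicate 4, and -0.049 without shDRP1 replicate 2 and shRandom replicate 1 together). The alternatives added after seeing the data gave 8 of the gained calls and 1 of the turned signs. Ndufb5 lost its call most often, in 5 alternatives. Its adjusted p with the replicate block was 0.0509. DESeq2 and limma-voom each gave 22 members lower and 3 higher. Members lower ranged from 22 to 23 and higher from 3 to 4 when 1 library was left out.

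Scaling by library totals alone moved the median of all genes from 0.03 to 0.13 and that of the members to -0.21. It gave 5 members higher, 2 of them in the proximal and 1 in the distal arm, with 3 assembly factors lower, 3 iron-sulfur genes lower and 4 higher, and 1 ubiquinone gene lower. Upper-quartile scaling gave 1 distal-arm gene higher and 3 iron-sulfur genes lower. Iron-sulfur genes higher numbered 1 with median-ratio factors, no filter or thinning, and 0 at a threshold of 0.01. The stricter filter, at least 10 CPM in at least 5 libraries, left 1 regulator higher. Ppargc1a, at no more than 2.27 CPM in any library, does not meet that filter. At 0.01, 3 iron-sulfur genes were lower and 2 ubiquinone genes higher. Against a fold of 1.2, 14 members were lower, 3 in the N module and 4 in the distal arm. That test left 3 assembly factors lower and 3 higher, 2 iron-sulfur genes lower and 0 higher, 1 ubiquinone gene lower and 2 higher, and 3 regulators lower. Fewer genes can pass these stricter thresholds by construction. For the other settings, the removal of Ppargc1a by the stricter filter aside, the cause was not tested.

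The replicate numbers do not pair the libraries: same-numbered deviations had Pearson correlations of -0.16, -0.18, -0.28, 0.48 and -0.24, and only number 4 matched its own best. With the replicate block 21 members were lower and 3 higher, 0 iron-sulfur genes were higher and 2 ubiquinone genes were higher.

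When 1 library was left out, iron-sulfur genes lower ranged from 3 to 5 and higher from 0 to 3, ubiquinone genes lower from 2 to 4, ubiquinone genes higher stayed at 3, and distal-arm genes higher ranged from 0 to 1. The 4 ubiquinone genes lower came without shDRP1 replicate 2. Iron-sulfur calls higher were 0 without shRandom replicate 3 or shDRP1 replicate 1 or 3, and 1 without shRandom replicate 5 or shDRP1 replicate 4. Without both shRandom replicate 1 and shDRP1 replicate 2, added after seeing the data, 1 distal-arm gene was higher and 4 ubiquinone genes lower. With the ribosomal RNA share as a covariate 1 distal-arm gene was higher and Ndufab1 passed as lower. With the within-group component 7 members were higher, 3 in the proximal and 2 in the distal arm. The member share of counts differed, shDRP1 minus shRandom, by -0.0702 percentage points of library totals and -0.112 of TMM-scaled sizes. Depth limits Ndufs5 most among the members, with 613 counts in all.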
